A study of Mus musculus with 48 samples.

Results

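The 91 genes described here encode the subunits of oxidative phosphorylation and close relatives of them in mouse liver. A gene was taken where a probeset of the array carried 1 gene symbol that began with Nduf, Uqcr, Atp5, Cox4, Cox5, Cox6, Cox7 or Cox8, or was Sdha, Sdhb, Sdhc, Sdhd, Cycs or Cyc1. No measured value entered that choice. Of 35556 probesets 118 fitted, and where a gene had several, as 18 genes did, the probeset with the highest mean over all arrays was kept, which left 91 of 19938 genes. They comprise 6 core subunits, 28 accessory subunits and 7 assembly factors of complex I, 4 genes of complex II, 9 of complex III, cytochrome c itself, 10 general subunits and 8 tissue isoforms of complex IV, the supercomplex factor Cox7a2l, and 5 genes of the F1 head and 12 of the stalk and membrane part of complex V.

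Oxidative phosphorylation is carried out in the inner mitochondrial membrane. Complexes I and II pass electrons from NADH and succinate to ubiquinone, complex III passes them on to cytochrome c, and complex IV hands them to oxygen, while complexes I, III and IV pump protons out of the matrix. Complex V lets the protons flow back and makes ATP. In the liver this chain also disposes of the electrons of fatty acid oxidation, and all subunits of complex II and most of the others are encoded in the nucleus.

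Affymetrix Mouse Gene 1.0 ST arrays, 1 per mouse, measured the liver RNA of 48 males in 6 groups of 8. WT mice were Wfs1 +/+, HZ mice carried 1 disrupted allele and KO mice 2, and each genotype received either valproic acid (VPA), an anticonvulsant and mood stabilizer, at a dose of 300 mg/kg or its vehicle saline (SAL) in a volume of 10 mL/kg, injected into the peritoneum daily for 12 weeks from an age of 4 to 6 weeks. All mice, also those given saline, had a glucose tolerance test the day before the liver was taken at 16 to 18 weeks. Wfs1 encodes wolframin, which sits in the membrane of the endoplasmic reticulum. The mutation removes only part of its exons and was not limited to the liver, so that effects within the liver and effects through other organs cannot be told apart.

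The Wfs1 probeset, which also covers exons that the mutation leaves in place, had a median log2 value of 8.44 in WT SAL, 8.28 in HZ SAL, 8.28 in KO SAL, 8.50 in WT VPA, 8.47 in HZ VPA and 8.28 in KO VPA mice, and these ranges overlapped, so that it is a weak check of the genotype labels. Medians of whole arrays lay between 6.90 and 7.03. The 10 hepatocyte markers measured averaged 13.7 to 13.9 in every mouse, which fits the labelled tissue. Since whole liver was measured, fewer cells of a type and less RNA per cell cannot be told apart.

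The sequence next to the start of these genes was examined first, since nuclear respiratory factor 1 (NRF1) and the estrogen-related receptors (ERR) are known regulators of respiratory chain genes. RefSeq windows from 250 bases before to 50 bases after the start (build GRCm38.p6) were found for 74 of the 91 genes. The NRF1 core GCGCATGC, read on both strands, lay in the window of 13 of them (17.6%), against 3.93% of all protein-coding genes with a window. The YY1 element AAGATGGC lay in 10 (13.5%, against 3.57%), the ERR element TCAAGGTCA in 2 (2.7%, against 0.38%) and the ETS element CCGGAAGT, bound by GABPA, in 5 (6.8%, against 5.69%). Median GC content was 58.3% in the windows of these genes and 56.3% in all. A match is a run of letters and not a measured binding site. The 13 windows with an NRF1 core are shown because this element was the most frequent of the 4, with up to 10 bases on either side, 5′ to 3′ along the gene, and capitals mark the core or its reverse complement.
Atp5g2 (chr15:102671072-102671099, minus strand): ggctccggccGCGCATGCgcagagcctt
Atp5k (chr5:108434432-108434459, minus strand): tttcactgcgGCGCATGCgcctttctgg
Atp5l (chr9:44920965-44920992, minus strand): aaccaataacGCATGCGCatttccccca
Cox6a1 (chr5:115349103-115349130, minus strand): caggaacgggGCGCATGCgcgctctcgc
Cycs (chr6:50566612-50566639, minus strand): atgctagctcGCATGCGCgcgcacaaac
Ndufa11 (chr17:56717692-56717719, plus strand): cctgcactgcGCGCATGCgcgcacgcct
Ndufa6 (chr15:82354357-82354384, minus strand): ccgcggtagaGCATGCGCattgcagagc
Ndufa8 (chr2:36049329-36049356, minus strand): cgctggagacGCATGCGCagatggtacc
Ndufaf4 (chr4:24897960-24897987, plus strand): ccagatgtctGCGCATGCgcctgtgcgg
Ndufaf5 (chr2:140170652-140170679, plus strand): agtcccgttgGCGCATGCgcctaataga
Sdhb (chr4:140961207-140961234, plus strand): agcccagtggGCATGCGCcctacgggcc
Uqcr11 (chr10:80406808-80406835, minus strand): tcgccttcacGCATGCGCtatacgtctg
Uqcrc1 (chr9:108936668-108936695, plus strand): actccgctctGCGCATGCgcagcgcggc

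Both ERR elements, in Atp5g3, a gene of the membrane ring of complex V, and Sdhd, a membrane anchor of complex II, are shown in the same way, with the element, here as its reverse complement, in capitals.
Atp5g3 (chr2:73911360-73911388, minus strand): tgttacaaagTGACCTTGAgcgtcttccc
Sdhd (chr9:50603800-50603823, minus strand): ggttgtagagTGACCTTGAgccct
The 13 genes with an NRF1 core had a median KO minus WT difference of 0.079 on the log2 scale and the 61 without it 0.0423. With and without the YY1 element the KO minus WT medians were 0.0138 and 0.0592, with and without the ERR element 0.0846 and 0.0535. For the ETS element they were 0.0811 and 0.0495. For VPA minus saline the medians with and without the NRF1 core were 0.005 and 0.0296, and for the YY1 element 0.0182 and 0.0351. For the ERR element they were 0.0412 and 0.029, and for the ETS element 0.0347 and 0.0285. These are descriptions, since the genes share arrays and overlap in function.

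KO mice were compared with WT mice over both treatments to see which genes depend on Wfs1. Of the nuclear genes of the chain 5 were higher in KO liver, Sdhc of complex II and the complex I accessory genes Ndufb7, Ndufa9, Ndufa6 and Ndufa7, by 0.14 to 0.27 on the log2 scale, and none was lower. In limma at an adjusted p of 0.05, 5 of 91 genes were thus called higher (5.49%), where 1.37% of all probesets were called higher, 1.57% lower and 2.94% in either direction. With each array centred on its median only Sdhc was called, 1.1% of the genes beside 1.05% of all probesets called higher. At an unadjusted p under 0.05, 22 were higher and 3 lower, which is 27.47% of the genes beside 13.61% of all probesets. Of the 91 genes 71 (78.02%) lay above 0, beside 53.57% of all probesets, and the median difference was 0.0495, beside 0.0067. The differences were small, from -0.20 to 0.27.

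**Figure D1:**
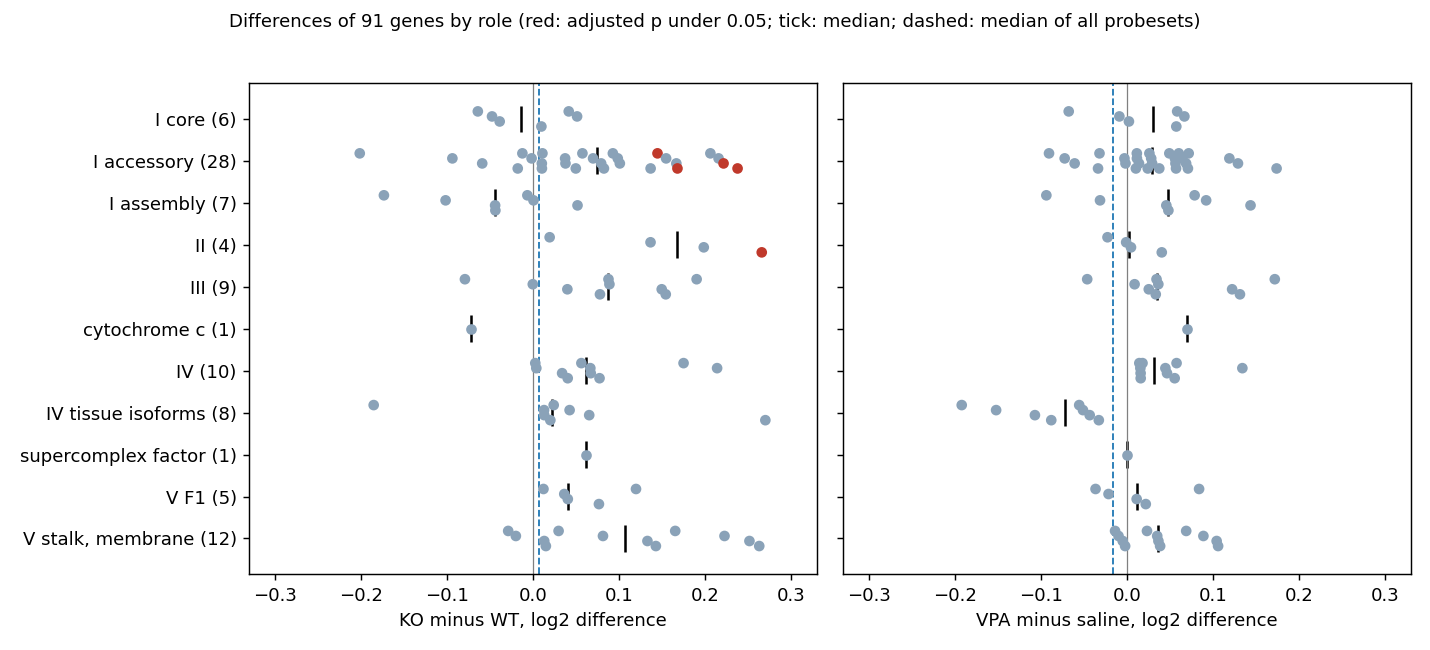
Log2 differences of the 91 genes, KO minus WT on the left and VPA minus saline on the right, with 1 point per gene, rows by role with the number of genes, a black tick for the median of a row, a dashed line for the median of all probesets and red for an adjusted p under 0.05. The 5 red points lie in complex I accessory genes and complex II, and with VPA the 8 tissue isoforms of complex IV all lie below 0 and the 10 general subunits all above it.

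Sdhc, which anchors succinate dehydrogenase in the membrane and binds its haem, is encoded at chr1:171129157-171150640. In saline mice it ranged from 11.45 to 12.01 with a median of 11.69 in WT and from 11.73 to 12.26 with a median of 11.90 in KO. In VPA mice it ranged from 11.26 to 11.95 with a median of 11.75 in WT and from 11.73 to 12.18 with a median of 11.99 in KO. WT and KO ranges overlapped, yet 16 of 16 KO mice lay above the mean of the WT mice of their treatment. The difference was 0.27 (SE 0.06, 95% interval 0.14 to 0.39, 1.20-fold, limma adjusted p = 0.00927). Within saline alone the two-sided exact permutation test gave p = 0.0225 and within VPA alone p = 0.0151, each 0.0789 after adjustment over the 7 comparisons of the gene.

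The other genes of complex II lay above 0 as well, without passing the adjusted p. Sdhb, the iron-sulphur subunit, differed by 0.14 (adjusted p = 0.297) and Sdhd by 0.20 (adjusted p = 0.09), while Sdha, the flavoprotein that oxidises succinate, differed by 0.02 (95% interval -0.06 to 0.10, adjusted p = 0.917). In saline mice Sdhb ranged from 11.01 to 11.43 with a median of 11.23 in WT and from 11.10 to 11.50 with a median of 11.36 in KO, so nearly the whole ranges overlapped. The 4 genes of the complex thus did not stand at a common difference, and differences between them were not tested.

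Complex I receives electrons from NADH through a matrix arm and pumps protons through a membrane arm, and its accessory subunits surround the catalytic core. Of its 28 accessory genes 4 were higher in KO mice, 22 lay above 0, and the median difference was 0.0743. Ndufb7, a subunit on the outer face of the membrane arm, ranged from 8.58 to 8.86 with a median of 8.78 in WT SAL, from 8.76 to 9.12 with a median of 8.85 in KO SAL, from 8.59 to 8.90 with a median of 8.77 in WT VPA and from 8.83 to 9.07 with a median of 8.95 in KO VPA mice. Its KO and WT ranges overlapped in both treatments and 16 of 16 KO mice were above the WT mean. The difference was 0.17 (SE 0.04, adjusted p = 0.0205), and within VPA it was 0.18 (exact permutation p = 0.00249, adjusted over 7 comparisons 0.0174).

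Ndufa9 is an accessory subunit of the matrix arm near the ubiquinone site. It ranged from 10.52 to 10.90 with a median of 10.72 in WT SAL, from 10.67 to 10.94 with a median of 10.84 in KO SAL, from 10.62 to 10.94 with a median of 10.68 in WT VPA and from 10.68 to 11.11 with a median of 10.86 in KO VPA mice. The ranges overlapped and 14 of 16 KO mice were above the WT mean. The difference was 0.14 (SE 0.04, adjusted p = 0.0365).

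Ndufa6, a small subunit that holds the acyl carrier protein on the matrix arm, ranged from 10.40 to 10.88 with a median of 10.58 in WT SAL, from 10.57 to 11.09 with a median of 10.85 in KO SAL, from 10.30 to 10.97 with a median of 10.55 in WT VPA and from 10.57 to 11.04 with a median of 10.88 in KO VPA mice. The ranges overlapped and 13 of 16 KO mice were above the WT mean. The difference was 0.24 (SE 0.07, adjusted p = 0.0442). Ndufa7, a further accessory subunit of the matrix arm, ranged from 9.22 to 9.97 with a median of 9.63 in WT SAL, from 9.59 to 10.27 with a median of 9.78 in KO SAL, from 9.45 to 10.00 with a median of 9.60 in WT VPA and from 9.69 to 10.03 with a median of 9.86 in KO VPA mice. These ranges overlapped too, with 15 of 16 KO mice above the WT mean, and the difference was 0.22 (SE 0.06, adjusted p = 0.0456). The calls of Ndufa6, Ndufa7 and Ndufa9 were lost when any of 20, 24 and 11 of the 48 arrays was left out, and those of Sdhc and Ndufb7 with none. With median centring Ndufb7 lost its call too (adjusted p = 0.0517).

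Of the 5 genes called higher, the 4 of complex I had a start window and Sdhc had none. The 4 windows are shown, with an NRF1 core (Ndufa6, beginning 83 bases before the start) or a YY1 element (Ndufa9, beginning 29 bases after it) in capitals. In the windows of Ndufb7 and Ndufa7 none of the 4 elements named above was found. Ndufa7 has a pair of annotated starts and the upstream window is printed.
Ndufa6 (chr15:82354242-82354541, minus strand): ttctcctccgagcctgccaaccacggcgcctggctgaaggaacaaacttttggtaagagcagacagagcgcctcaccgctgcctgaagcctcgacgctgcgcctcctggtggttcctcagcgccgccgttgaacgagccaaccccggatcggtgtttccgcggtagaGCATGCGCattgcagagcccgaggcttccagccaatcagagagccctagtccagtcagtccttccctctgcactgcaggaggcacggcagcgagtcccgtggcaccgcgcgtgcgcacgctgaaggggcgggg
Ndufa9 (chr6:126849095-126849394, minus strand): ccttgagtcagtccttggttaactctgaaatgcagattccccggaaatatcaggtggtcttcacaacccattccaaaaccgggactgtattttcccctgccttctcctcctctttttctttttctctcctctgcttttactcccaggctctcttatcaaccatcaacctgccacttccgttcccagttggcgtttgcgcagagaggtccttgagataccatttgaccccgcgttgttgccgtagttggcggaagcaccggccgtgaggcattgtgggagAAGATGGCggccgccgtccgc
Ndufb7 (chr8:83566508-83566807, plus strand): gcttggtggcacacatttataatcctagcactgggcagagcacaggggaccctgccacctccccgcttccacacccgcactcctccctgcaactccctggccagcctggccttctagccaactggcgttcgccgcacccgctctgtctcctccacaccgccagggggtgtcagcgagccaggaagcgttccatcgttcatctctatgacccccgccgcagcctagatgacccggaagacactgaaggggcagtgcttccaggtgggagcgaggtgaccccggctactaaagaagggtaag
Ndufa7 (chr17:33824322-33824621, plus strand): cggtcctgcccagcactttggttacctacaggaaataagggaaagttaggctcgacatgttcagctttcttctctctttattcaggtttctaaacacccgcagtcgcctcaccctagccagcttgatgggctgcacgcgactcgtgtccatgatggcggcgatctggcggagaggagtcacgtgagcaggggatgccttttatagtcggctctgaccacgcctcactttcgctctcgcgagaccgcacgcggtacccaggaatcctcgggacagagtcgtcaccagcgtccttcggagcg

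**Figure D2:**
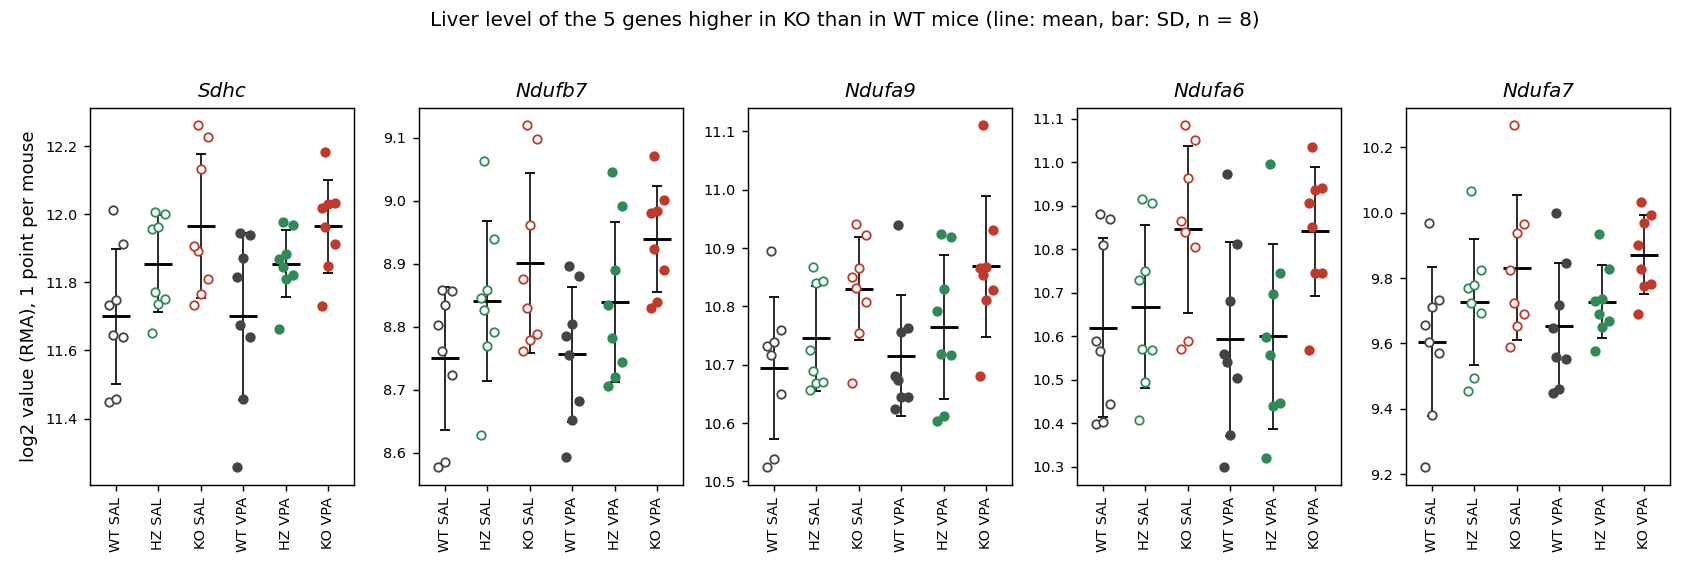
Log2 values of the 5 genes higher in KO mice, 1 point per mouse, open for saline and filled for VPA, with the group mean as a line and the SD as a bar (8 mice per group, separate vertical scale for each gene). KO groups lie above WT groups on average in both treatments and the ranges overlap.

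None of the core genes or assembly factors of complex I passed. Of the 6 core genes 3 lay above 0, with a median of -0.0147 and a range of -0.06 to 0.05, and none had an unadjusted p under 0.05. Of the 7 Ndufaf genes, which help build the complex and are not part of it, 2 lay above 0, with a median of -0.044. Ndufaf1, which acts on the membrane arm, differed by -0.17 (SE 0.06, adjusted p = 0.0827) and Ndufaf3, an assembly factor of the matrix arm, by -0.10 (adjusted p = 0.307). Differences between these roles were not tested.

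In complex III, which passes electrons from ubiquinol to cytochrome c, 7 of 9 genes lay above 0 and the median was 0.0875. The 9 included Uqcrh, the hinge protein, named here after its values were seen, which differed by 0.19 (adjusted p = 0.0748). Uqcrc2, a core protein, had equal means in KO and WT mice to 2 decimals (95% interval of the difference -0.08 to 0.08). Cycs, cytochrome c, differed by -0.07 with a wide interval of -0.34 to 0.19. Its values spread from 12.29 to 13.17 in WT SAL and from 12.17 to 13.23 in KO SAL mice, so the groups covered nearly the same range.

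All 10 general genes of complex IV lay above 0 in KO mice (8 of 10 with median centring), with a median of 0.0612, and none passed the adjusted p. Cox4i1, the main isoform of the regulatory subunit 4, differed by 0.21 (adjusted p = 0.183) and Ndufa4, first counted to complex I and later to complex IV, by 0.17 (adjusted p = 0.207). Cox6a1 and Cox7a2, the isoforms of the liver, differed by 0.0036 (95% interval -0.11 to 0.12) and 0.03, and Cox7a2l, which joins complexes III and IV, by 0.06 (adjusted p = 0.833). Of the 8 tissue isoforms 7 lay above 0, with a median of 0.0218. In complex V the 5 F1 genes had a median of 0.0402 and the 12 genes of the stalk and membrane part one of 0.107, with Atp5k, subunit e, at 0.26 (adjusted p = 0.304) and Atp5l, subunit g, at 0.25 (adjusted p = 0.187). Atp5a1, the alpha subunit, differed by 0.08 (SE 0.03, adjusted p = 0.169) with 14 of 16 KO mice above the WT mean.

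The saline and the VPA mice are separate animals, so KO minus WT could be set side by side in both. Differences were 0.27 in saline and 0.26 in VPA mice for Sdhc, 0.15 and 0.18 for Ndufb7, 0.14 and 0.15 for Ndufa9, 0.23 and 0.25 for Ndufa6, and 0.23 and 0.22 for Ndufa7. Of the 91 genes 58 (63.7%) lay above 0 in both, beside 33.6% of all probesets, 8 lay below 0 in both, and 25 had opposite signs. Across the 91 genes r was 0.674, which is a description, since genes are not independent replicates. Within a treatment no gene passed the adjusted p, neither in saline mice, where 0.79% of all probesets did, nor in VPA mice, where 0.405% did. At an unadjusted p under 0.05, limma gave 12 genes in each (13.19%), beside 9.25% of all probesets in saline and 7.91% in VPA mice. In VPA mice Cox6b2 lay lowest of the 91, at -0.33.

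**Figure D3:**
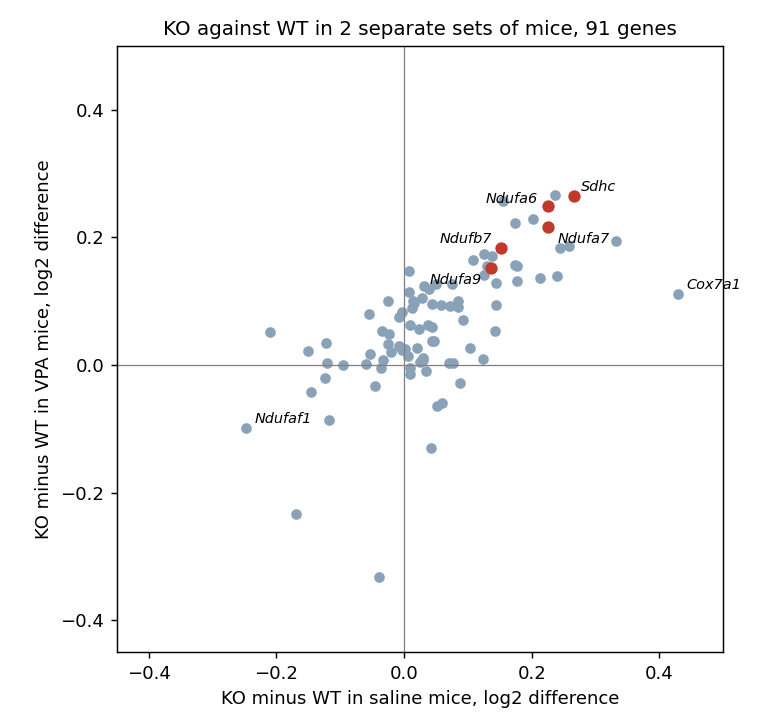
KO minus WT on the log2 scale in saline mice (horizontal) and in VPA mice (vertical), 1 point per gene, with the 5 genes called over both treatments in red. Red points, chosen on the mean of both differences, lie near equal values in both sets of mice, while Cox7a1 lies at 0.43 in saline and 0.11 in VPA mice.

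Other measures moved with the KO genotype, beside 1.37% of all probesets called higher and 1.57% called lower. The livers were taken once per mouse, and clock genes differed between genotypes. Of 8 genes that peak with Dbp 6 were higher, among them Per3 by 1.07, and of the 3 measured that peak with Arntl 2 were lower, Clock by 0.48 and Nfil3 by 0.42. An index of these genes per mouse, the mean standardised level of the Arntl side minus that of the Dbp side, had a median of -0.561 in WT SAL, -1.406 in KO SAL, 2.208 in WT VPA and -0.188 in KO VPA mice. With the index as a covariate none of the 91 genes passed, 195 of all probesets did in place of 1046, and the 5 differences were 0.11 for Ndufa9, 0.13 for Ndufb7, 0.16 for Ndufa7, 0.24 for Sdhc and 0.28 for Ndufa6, with adjusted p between 0.201 and 0.593. The median of the 91 genes was then 0.088, with 74 above 0. Of the marker lists, 0 of 10 hepatocyte, 0 of 12 Kupffer cell, 0 of 9 endothelial, 0 of 9 stellate cell and 0 of 10 muscle markers passed in KO against WT. The fall of Alas2, the haem synthesis enzyme of red cell precursors, by 1.24 was the 1 call among 3 erythroid markers, whose mean level was 7.86 to 8.12 in WT SAL, 7.03 to 7.79 in KO SAL, 7.78 to 8.15 in WT VPA and 7.16 to 7.86 in KO VPA mice. Cd4 of 8 lymphocyte markers fell by 0.35, Sox9 of 5 cholangiocyte markers by 0.30 and Car3 of 6 adipocyte markers by 0.18. Their part in the result was not tested.

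Heterozygous mice showed no called gene among the 91, and 0.00281% of all probesets, 1 in number, were called in HZ against WT. In limma 1 gene (1.1%) had an unadjusted p under 0.05, beside 5.4% of all probesets. It was Sdhc, at 0.16 (SE 0.06, 95% interval 0.03 to 0.28, adjusted p = 0.805), with 14 of 16 HZ mice above the WT mean. Sdhc ranged from 11.65 to 12.01 in HZ SAL with a median of 11.87 and from 11.66 to 11.98 in HZ VPA mice with a median of 11.86. Both HZ medians lay between those of WT and KO mice, and HZ ranges overlapped with both. Ndufb7 differed by 0.09 (adjusted p = 0.911) and Ndufs4, an accessory subunit at the base of the electron input module, by -0.16 (adjusted p = 0.917). The widest difference within saline mice was that of Ndufs4, at -0.29 (adjusted p = 0.333), and without the lowest HZ SAL mouse it was -0.19. Within saline, where 0.304% of all probesets were called, and within VPA, where 0.00281% were, no gene passed, and 2 (2.2%) and 0 had an unadjusted p under 0.05, beside 10.66% and 2.88% of all probesets.

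VPA was compared with saline over the 3 genotypes. None of the 91 genes passed the adjusted p, while 8.61% of all probesets did, 4.01% higher and 4.6% lower. In limma 11 genes (12.09%) had an unadjusted p under 0.05, 7 higher and 4 lower, beside 26.1% of all probesets. Of the 91 genes 63 (69.23%) lay above 0, beside 43.16% of all probesets, with a median of 0.0257 beside -0.0163 and a range of -0.19 to 0.17. All 10 general genes of complex IV lay above 0, with a median of 0.0317, and all 8 tissue isoforms below it, with a median of -0.0715. The isoforms had low signal, with mean log2 values of 5.02 to 7.50, where array medians lay between 6.90 and 7.03. The general genes stood at 10.29 to 13.57. The part of signal level in this contrast was not tested. The clock index itself differed by treatment, with saline and VPA medians of -0.561 and 2.208 in WT, -2.445 and 1.911 in HZ, and -1.406 and -0.188 in KO mice. Index and treatment are thus hard to tell apart in a fit that holds both. With the index as a covariate 0 of all probesets passed with VPA, in place of 3062, and their median was -0.0179. In that fit 32 of the 91 genes lay above 0 and their median turned to -0.026. Among them 4 of the 10 general genes and 2 of the 8 isoforms lay above 0. With the array axis described further on the median was 0.0095, with 55 of the 91 genes above 0, among them 7 general genes and 3 isoforms. With median centring it was 0.0512, with 73 above 0, among them 10 general genes and 0 isoforms.

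Most of these isoforms replace a general subunit in heart, muscle, lung or testis and are known from other tissues than the liver. Cox7a1, the isoform of heart and muscle, differed by -0.19 (SE 0.07, adjusted p = 0.0811), Cox4i2, the isoform of lung, by -0.11 (SE 0.04, adjusted p = 0.0808) and Cox8b, again of heart and muscle, by -0.15 (SE 0.06, adjusted p = 0.0819). Only 5, 7 and 3 of 24 mice given VPA exceeded the mean of the saline mice of their genotype. Cox6a2, the muscle isoform of subunit 6a, differed by -0.04 and Ndufa4l2, a relative of Ndufa4 known to rise in hypoxia, by -0.05, while Ndufa4 differed by 0.13 (adjusted p = 0.125). Of 10 muscle markers none passed with VPA, and their mean level ranged from 6.41 to 7.01 over the saline groups and from 6.41 to 7.29 over the VPA groups. Their median VPA difference was -0.0663, beside -0.0715 for the 8 isoforms. It was -0.0927 for adipocyte, -0.0661 for cholangiocyte, -0.1111 for erythroid and -0.0143 for hepatocyte markers. The medians of lymphocyte (0.0194), stellate cell (0.0684), endothelial (0.1027) and Kupffer cell markers (0.391) lay above 0. For muscle markers the median mouse stood at 6.716 in WT SAL and 6.588 in WT VPA, 6.727 in HZ SAL and 6.61 in HZ VPA, and 6.743 in KO SAL and 6.612 in KO VPA. The part of muscle markers in the isoform values was not tested.

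Among subunits of the liver complex the smallest p with VPA was that of Ndufa11, an accessory subunit of the membrane arm of complex I. It ranged from 9.62 to 9.92 with a median of 9.78 in WT SAL and from 9.60 to 9.80 with a median of 9.69 in WT VPA mice. In HZ mice the medians were 9.84 with saline and 9.74 with VPA, and in KO mice 9.86 and 9.79. Ranges overlapped in each genotype, and 4 of 24 mice given VPA exceeded the saline mean. The difference was -0.09 (SE 0.03, adjusted p = 0.07), and the other probeset of the gene gave -0.0036 (adjusted p = 0.976).

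Markers of other cells moved with VPA, where 4.01% of all probesets were called higher and 4.6% lower. Of 12 Kupffer cell markers 7 were higher, Csf1r, Cd5l and Cd68 among them, and the mean level of the list was 8.21 to 9.51 in WT SAL, 8.27 to 9.13 in HZ SAL, 8.57 to 9.41 in KO SAL, 8.15 to 9.75 in WT VPA, 9.01 to 9.59 in HZ VPA and 8.80 to 9.48 in KO VPA mice. Of 9 endothelial markers 3 and of 9 stellate cell markers 2 were higher, 2 of 10 hepatocyte markers were lower, Cyp2e1 by 0.08 and Tat by 0.18, all 8 clock genes of the Dbp side were lower and the 3 of the Arntl side higher. No marker of the 8 for lymphocytes or the 6 for adipocytes passed. Of the other lists Slc4a1 of 3 erythroid markers and Epcam of 5 cholangiocyte markers were lower and Sox9 of the latter higher. Their part in the values above was not tested. The labels number the mice 5 to 30 in the saline and 59 to 84 in the VPA groups, with WT, HZ and KO mice in separate runs within each. If these numbers mark an order of handling, order cannot be told apart from treatment or from genotype, which includes KO against WT.

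Within HZ mice 1 gene passed with VPA, where 10.5% of all probesets were called and 5.76% were called lower. Cox4i2 ranged from 6.80 to 7.00 with a median of 6.91 in HZ SAL and from 6.42 to 6.95 with a median of 6.71 in HZ VPA mice. The ranges overlapped, 6 of 8 HZ VPA mice lay below all HZ SAL mice, and the difference was -0.22 (SE 0.07, adjusted p = 0.0351; exact permutation p = 0.00295, adjusted over 7 comparisons 0.0207). Given VPA, Cox4i2 differed by -0.03 in WT mice and by -0.07 in KO mice, and its interaction had an adjusted p of 0.741. In the same HZ mice the mean level of 9 endothelial markers was 8.98 to 9.30 with saline and 9.35 to 9.68 with VPA, without overlap, and that of 9 stellate cell markers 8.40 to 8.69 and 8.61 to 8.92. Their part in the difference of Cox4i2 was not tested. The call was lost when either of HZ SAL replicates 1 and 5 or any of HZ VPA replicates 1, 6 and 8 was left out, or with the clock index as a covariate, and when HZ SAL replicate 7 or HZ VPA replicate 4 was left out Ndufs4 passed in its place. Ndufs4 showed the largest VPA difference of the 91 genes in HZ mice, 0.32 (adjusted p = 0.0596). It ranged from 10.83 to 11.86 with a median of 11.58 in HZ SAL and from 11.50 to 12.06 with a median of 11.88 in HZ VPA mice. The lowest HZ SAL mouse, at 10.83, stood apart from the others of its group, and the VPA difference without it was 0.22.

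**Figure D4:**
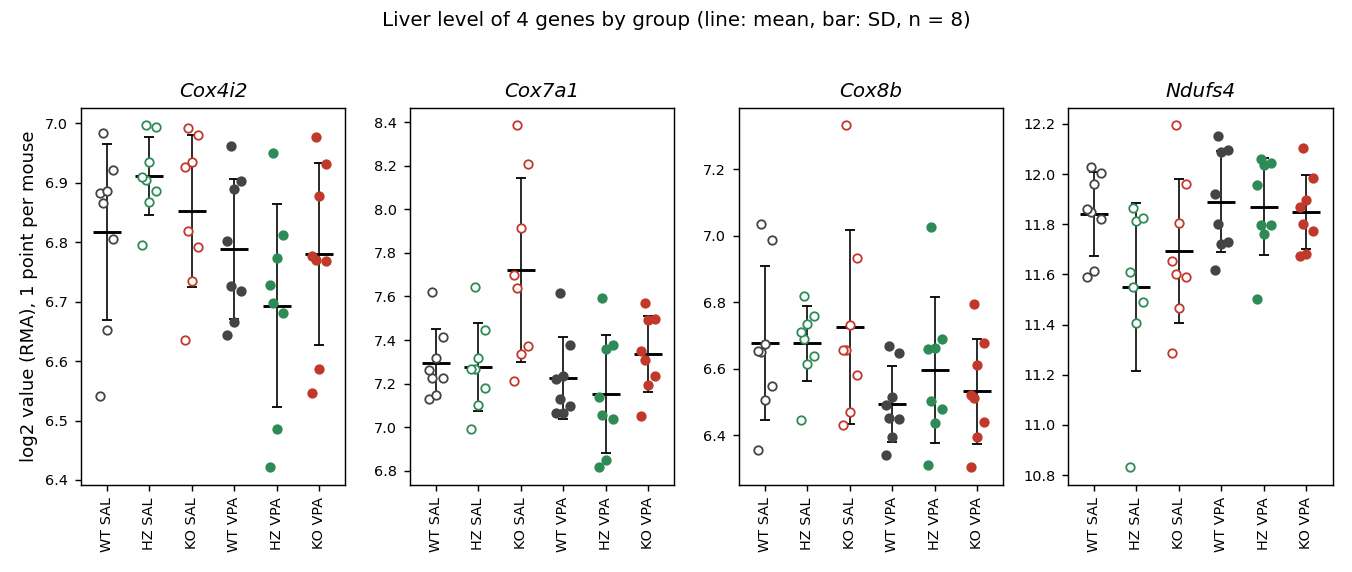
Log2 values of Cox4i2, Cox7a1, Cox8b and Ndufs4, 1 point per mouse, open for saline and filled for VPA, with the group mean as a line and the SD as a bar (8 mice per group, separate vertical scale for each gene). HZ SAL mice of Cox4i2 lie between 6.80 and 7.00, and KO SAL mice of Cox7a1 spread from 7.21 to 8.39.

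No gene passed within WT mice, where 0.0703% of all probesets were called, or within KO mice, where 0.0112% were. In limma 0 and 4 genes (4.4%) had an unadjusted p under 0.05, beside 5.55% and 7.16% of all probesets. Cox7a1 had the smallest of these, at -0.39 in KO mice (SE 0.12, adjusted p = 0.395). It ranged from 7.13 to 7.62 with a median of 7.24 in WT SAL, from 7.21 to 8.39 with a median of 7.67 in KO SAL and from 7.05 to 7.57 with a median of 7.33 in KO VPA mice. KO SAL mice thus spread widely, with 5 of 8 above all WT SAL mice (exact permutation p = 0.0143, adjusted over 7 comparisons 0.1). The test that the VPA effect is equal in the 3 genotypes called none of the 91 genes, where 0.0816% of all probesets were called, and no gene had an unadjusted p under 0.05, beside 7.89% of all probesets. Sdhd came nearest (adjusted p = 0.687). Its VPA differences were 0.04 among WT, -0.19 among HZ and 0.09 among KO mice.

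The genes also varied among mice of a group. Spread within groups was lowest for Atp5a1, with an SD of 0.069, and highest for Cox6b2, a testis isoform, with 0.471. In the other roles the extremes were Ndufb11 (0.0835) and Ndufs5 (0.304) in complex I, Ndufaf3 (0.129) and Ndufaf7 (0.213) among assembly factors, Sdha (0.103) and Sdhd (0.184) in complex II, Uqcrc2 (0.108) and Uqcr11 (0.393) in complex III, Cox7b (0.0823) and Cox7a2 (0.262) in complex IV, Cox4i2 (0.135) among tissue isoforms and Atp5k (0.351) in complex V. After the group means were subtracted, the median correlation of 4095 pairs of genes was 0.111, from -0.846 to 0.917. Pairs within a complex had a median of 0.136 and pairs across complexes 0.097. The pairs with the highest r, named after their values were seen, joined different complexes. They were Ndufs1, the largest core subunit of complex I, with Atp5c1, the gamma subunit of complex V (0.917), Uqcrfs1, the Rieske protein of complex III, with Ndufs1 (0.902), and Cox7a2 with Atp5c1 (0.899). The pairs share arrays, so no p is given.

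That variation followed the rest of the array. The first component of the within-group deviations of all genes other than these 91 held 21.3% of their variance, the 91 genes had a first component of their own that held 38.1%, and the scores of the 48 mice on both had an r of 0.91 in size (Spearman rho 0.924). Of the 91 genes 33 had an r under -0.5 with the axis of the other genes, Uqcrfs1 (-0.895) and Ndufs1 (-0.849) among them, and 13 an r over 0.5, Ndufa3 (0.817) among them, genes again named after their values were seen. Together they made 50.5% of the genes, beside 36.6% of all others. Members of the same complex thus lay on both sides of the axis, as Sdhc (0.572) and Sdhb (-0.659) did in complex II. Mean scores were -0.045 in WT SAL, 0.512 in HZ SAL, 0.207 in KO SAL, -0.218 in WT VPA, -0.428 in HZ VPA and -0.028 in KO VPA mice, with overlapping ranges. What the axis stands for was not tested. With the score as a covariate, added after the data were seen, 10 of the 91 genes passed in KO against WT, 9 higher and 1 lower. The 9 (9.89%) stood beside 2.14% of all probesets called higher, and calls over all probesets rose from 1046 to 1595. By construction the axis holds the largest part of the within-group deviations of the other genes in the same fit. A rise in calls with it is thus no test of the calls. Of the 91 genes those higher included all 5 above, Atp5a1 at 0.09 and Sdhb at 0.16, and the lower one was Ndufaf1 at -0.15.

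**Figure D5:**
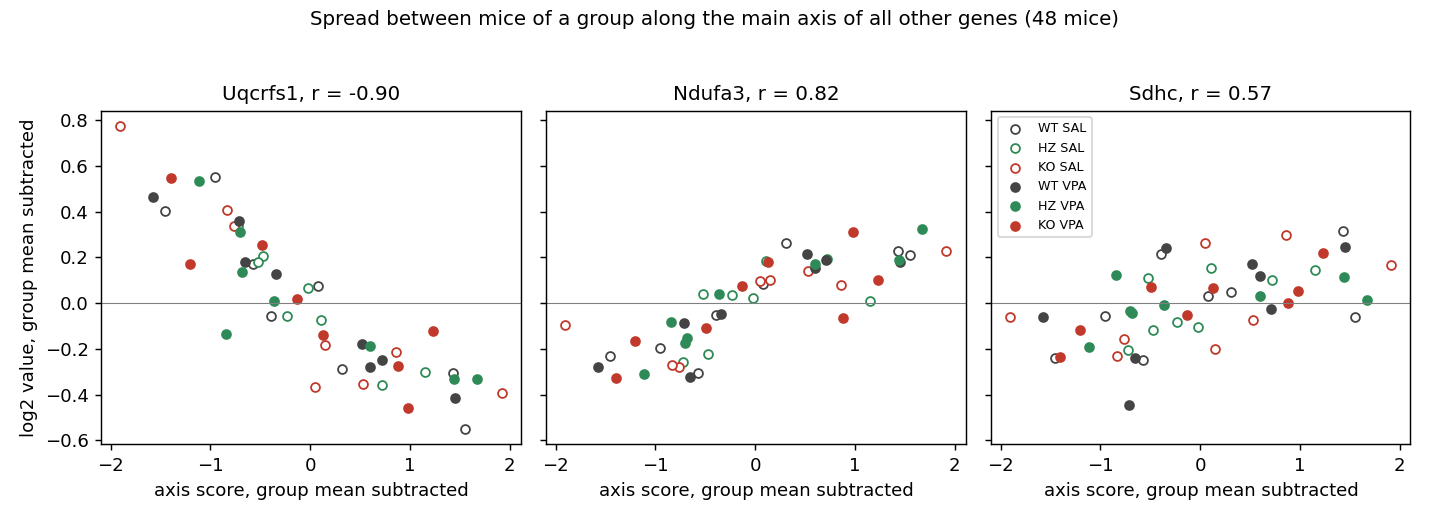
Deviation from the group mean of Uqcrfs1, Ndufa3 and Sdhc in log2 units (vertical) against the score of each of 48 mice on the first component of all other genes, group mean subtracted (horizontal). Uqcrfs1 falls along the axis (r = -0.895), Ndufa3 rises (r = 0.817) and Sdhc rises with more scatter (r = 0.572).

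Genes around the chain were counted from lists. Of all probesets 1.37% were called higher and 1.57% lower in KO against WT, and 4.01% higher and 4.6% lower with VPA. Single calls in lists this short are descriptions. The 2 mitochondrially encoded subunits measured, COX2 and ND3, differed by 0.02 and 0.02 between KO and WT and by 0.01 and 0.02 between VPA and saline, and neither passed. Of 17 genes of the citric acid cycle and pyruvate entry 2 were higher in KO mice, Idh2, the NADP-dependent mitochondrial isocitrate dehydrogenase, by 0.43 (adjusted p = 1.15e-05) and Dlat, a subunit of pyruvate dehydrogenase, by 0.46 (adjusted p = 0.00201). With VPA 1 was higher, Dlst, a subunit of 2-oxoglutarate dehydrogenase, by 0.12 (adjusted p = 0.0364). Of 24 regulators of mitochondrial biogenesis 2 were higher in KO mice, the coactivator Ppargc1a by 0.64 (adjusted p = 0.000801) and the nuclear receptor Esrra by 0.15 (adjusted p = 0.0278), and 2 were lower with VPA, Ppargc1b by 0.34 (adjusted p = 0.00017) and Esrra by 0.13 (adjusted p = 0.00869). Of 41 assembly factors outside the 91 genes Atpif1, the inhibitor of complex V, was higher in KO mice by 0.17 (adjusted p = 0.0104) and Ttc19, which acts on complex III, lower with VPA by 0.14 (adjusted p = 0.00458). Of 21 carriers and uncoupling proteins Vdac2, an outer membrane channel, and Slc25a27 were higher in KO mice, and Slc25a13, an aspartate and glutamate carrier, was lower with VPA. Median differences of these 4 nuclear lists in KO against WT lay between -0.019 and 0.0456.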

How the data were processed

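Total liver RNA of 48 male mice was hybridised by the authors, 1 array per mouse. The deposited log2 values were made, per the labels, with RMA in Affymetrix Expression Console 1.1.2800.28061. RMA comprises background correction, quantile normalization and summary of probes. The normalization brings the probe values of all arrays to 1 distribution before the summary, so a shift common to all genes is largely removed. Probeset medians of the arrays still lay between 6.90 and 7.03, so small shifts between arrays remain. RMA values have no true zero, and the number of arrays and the spread between mice limit the precision. Symbols came from the platform annotation by probeset identifier. They gave 1 symbol to 21789 of 35556 probesets, several to 1621 and none to 12146. The 6 probesets that pair a fitting symbol with another (Cox7c, Ndufb4 and Ndufs5 with close copies) were left out, and signal from other near-identical copies cannot be told apart. Positions are those of RefSeq on GRCm38.

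Group means were estimated by a limma fit (version 3.58.1, R 4.3.3) on all probesets and all 48 arrays (42 residual degrees of freedom), moderated by eBayes and adjusted over 35556 probesets by the Benjamini-Hochberg method. The fit was tested on simulated data. Each p-value is two-sided. Single genes were compared between groups of 8 by exact permutation tests over all 12870 splits, computed in Python 3.11.15, and figures were drawn with matplotlib 3.10.9. The exact p-values were adjusted over the 7 comparisons of a gene and not over genes. Mice were taken as the replicates.

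By rule, genes named were all that passed in a main comparison or else the 3 with the smallest p, the 3 with the smallest p in each comparison within a treatment or genotype, complex II, Cycs, isoform pairs, Cox7a2l, and the extremes of SD in each complex. Other genes are marked as named after their values were seen or serve as members of a list. The genes and lists were chosen with earlier results of these data known. Alternatives were array weights, a variance trend with robust estimation, no moderation, median centring, restriction to probesets with 1 symbol, to a group mean of at least 5 or to a single probeset for each gene, a block on the replicate number, a clock index as a covariate, only the groups compared, and leaving out each array. The array axis and the values of Ndufs4 without its lowest HZ SAL mouse were added after seeing the data.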

Additional observations from a re-analysis of the deposited data

Results flagged for a closer look

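In 8 of 216 groups of 8 mice examined (3.7%) 1 mouse stood apart by Dixon's gap test, where chance gives about 1 in 20. They were Atp5a1 in KO VPA replicate 1, at 12.469 beside 12.346 for the nearest mouse, Cox6a1 in WT SAL replicate 3 (11.52 beside 11.248), Cox6a2 in HZ SAL replicate 3 (7.244 beside 7.486), Ndufa9 in WT VPA replicate 3 (10.939 beside 10.763), Ndufaf7 in KO SAL replicate 2 (7.644 beside 7.229), Ndufs4 in HZ SAL replicate 1 (10.83 beside 11.408), and Uqcrc2 in WT SAL replicate 3 (12.419 beside 12.6) and KO VPA replicate 4 (12.937 beside 12.693). Of these genes Ndufa9 was called in KO against WT.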

How the results depend on the processing

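The count of 5 genes in KO against WT was 3 without moderation, 1 with median centring (Sdhc, adjusted p = 0.0112), 2 with only the groups compared, 0 with the clock index and 10 with the array axis, while 5 other settings gave 5. Of all probesets 1046 (2.94%) were called in the main setting. Counts over all probesets without moderation and with only the groups compared are not given here. With median centring 904 were called, with the clock index 195, with the array axis 1595 and with the replicate block 1231. The cause of these changes was not tested. Median centring lowered the median of all probesets from 0.0067 to -0.002 and turned the split of VPA calls over all probesets from 1425 higher and 1637 lower to 1871 and 860. None of the 91 genes passed with VPA, but 2 did with array weights (Cox4i2 and Ndufaf7) and 1 with the replicate number as a block (Ndufa11, adjusted p = 0.0385). In the main setting 8.61% of all probesets passed with VPA, and their share with array weights is not given here. With that block 4004 of all probesets passed with VPA, in place of 3062. With VPA in HZ mice 1 passed, and 0 with the clock index, whose ranges in HZ SAL and HZ VPA mice did not overlap. With the replicate block the KO count stayed at 5, 4 higher and 1 lower, with Ndufaf1 gained (adjusted p = 0.0499) and Ndufa6 lost (adjusted p = 0.0536). Replicate numbers are not said to pair mice, so they were not taken as pairs. Same-numbered mice correlated by over 0.1 in 53 of 120 pairs, with a mean r of 0.055 beside -0.008 for other pairs between groups. Whether mice of a number share variance was not tested. HZ against WT and the interaction gave 0 in every setting run. Of 744 values of single genes recomputed 48 changed sign, none of them a called one.

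Leaving out each array in turn gave 2 to 9 genes in KO against WT, 0 to 5 with VPA, and 0 in HZ against WT and in the interaction. Of all probesets 2.1% to 3.55% passed in KO against WT and 6.56% to 13.1% with VPA. In HZ against WT 0.00281% to 0.0141% passed, in the interaction 0.0422% to 0.146%, and with VPA in HZ mice 5.83% to 13.7%. Sdhc and Ndufb7 passed without each of the 48. Ndufa6 did not in 20 (adjusted p up to 0.0845), Ndufa7 in 24 (up to 0.0989) and Ndufa9 in 11 (up to 0.0701). The count was 2 without WT SAL replicate 8, KO SAL 2, 4 or 5, WT VPA 2, 4 or 6, or KO VPA 2 or 4, it was 3 without WT SAL 2, 6 or 7, WT VPA 3 or 5, or KO VPA 5 or 8, and 9 without WT VPA 7. Single calls were also lost, Ndufa6 without KO SAL 1 or 3, KO VPA 6 or WT SAL 5, Ndufa7 without HZ SAL 2 or 6, HZ VPA 6 or 8, KO SAL 8, KO VPA 1 or 7, or WT VPA 1, and Ndufa9 without WT SAL 3 or WT VPA 1. With VPA, 5 passed without KO SAL 2, 3 without WT SAL 2, 2 without HZ VPA 7, and 1 without HZ SAL 7, KO SAL 7, WT VPA 7 or HZ VPA 3. Of all probesets 13.1% passed without KO SAL 2, 12.8% without WT SAL 2 and 9.85% without HZ VPA 7. With VPA in HZ mice 0 to 2 passed, 0 without HZ SAL 1 or 5 or HZ VPA 1, 6 or 8, and 2 (Cox4i2 and Ndufs4) without HZ SAL 3 or 6 or KO SAL 2, while Ndufs4 passed in place of Cox4i2 without HZ SAL 7 or HZ VPA 4.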
